A study of Mus musculus with 36 samples.

Results

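The genes described here were *Tfap2e*, *Meis2*, *Bcl11b* and *Gli3*, which encode transcription factors that act as apical and basal neurons of the vomeronasal organ are formed. They were chosen by name, and all 4 were found among the 24581 genes with a value in every library, after RefSeq transcripts had been matched to gene symbols and their FPKM summed. FPKM is a fragment count scaled by transcript length and by the mapped fragments of the library, so levels can be set side by side between genes. The 36 RNA-seq libraries came from the main olfactory epithelium (MOE), the vomeronasal organ (VNO) and the olfactory bulb (OB), with 12 libraries per tissue and 3 per group. All mice were of the C57BL/6 strain and 6 months old, with no genetic change or drug treatment, and had been kept 4 to a cage after weaning at 3 weeks. Sex-separated females (SF) and sex-separated males (SM) lived with their own sex in rooms without the other sex, whereas females and males under the sex-combined condition (CF and CM) shared cages. The paper states that pups born in the shared cages were killed within a day of birth, so breeding came with the sex-combined condition. Each library was made from a pool of RNA, of 2 mice by the design text (the published methods give another number), so a value is a mean over mice of whole dissected tissue. The tissues were taken from the same mice, so libraries of different tissues are not from independent mice, and p-values measure the spread between pools.

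Vomeronasal sensory neurons arise throughout life from dividing cells and take one of 2 fates. Apical neurons use the G protein subunit Gαi2 (*Gnai2*) and receptors of the Vmn1r family, and basal neurons use Gαo (*Gnao1*) and receptors of the Vmn2r family. AP-2ε, the product of *Tfap2e*, is found in basal neurons and maintains their identity. Meis2, a homeobox protein of the TALE class, marks apical neurons. Bcl11b (also called Ctip2), a zinc finger protein, acts in neurons that have left the cell cycle and affects the balance between the fates, and Gli3 is a zinc finger protein through which Hedgehog signalling acts on target genes during nasal development. *Meis2* and *Bcl11b* are also used outside the VNO, *Meis2* in interneurons of the OB and *Bcl11b* in many neurons and in T cells.

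In the mm9 coordinates of the deposited data, *Tfap2e* lay at chr4:126393246-126413513, *Meis2* at chr2:115686999-115893180, *Bcl11b* at chr12:109148612-109241624 and *Gli3* at chr13:15555555-15821858. No other gene of the data overlapped any of the 4 loci. *Tfap2e* and *Gli3* were each measured through 1 transcript, *Bcl11b* through 3 and *Meis2* through 15. The promoters of *Tfap2e* and *Gli3* are printed because these were the genes whose levels were highest in VNO and because their single transcripts leave no choice of start. They are the RefSeq sequences on GRCm38.p6, 250 bases before and 50 bases after the start, 5′ to 3′ on the strand of the gene, with capitals marking each E-box (CANNTG), a motif that basic helix-loop-helix factors can bind. The *Tfap2e* promoter is chr4:126736220-126736519 on the minus strand, and the *Gli3* promoter is chr13:15463473-15463772 on the plus strand.
Tfap2e: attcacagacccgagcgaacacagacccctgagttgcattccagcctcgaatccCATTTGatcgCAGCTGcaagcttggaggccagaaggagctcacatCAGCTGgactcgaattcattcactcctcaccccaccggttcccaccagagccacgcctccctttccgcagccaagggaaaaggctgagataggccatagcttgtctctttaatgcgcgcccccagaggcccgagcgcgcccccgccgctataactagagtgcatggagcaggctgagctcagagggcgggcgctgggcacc
Gli3: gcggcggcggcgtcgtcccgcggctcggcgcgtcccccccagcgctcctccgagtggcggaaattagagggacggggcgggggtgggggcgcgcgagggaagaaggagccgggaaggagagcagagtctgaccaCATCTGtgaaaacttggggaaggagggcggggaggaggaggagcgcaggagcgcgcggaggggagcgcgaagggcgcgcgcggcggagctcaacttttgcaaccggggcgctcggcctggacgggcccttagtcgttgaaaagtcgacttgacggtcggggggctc
The *Tfap2e* promoter held 3 matches to the E-box and the *Gli3* promoter 1, whereas the *Meis2* and *Bcl11b* promoters held none. Only 1 window was searched per gene, although the *Meis2* transcripts have several starts. Which of these starts its window belongs to was not determined, so its matches hold for that window alone. A match was present in 72.3% of the 32851 promoters of the same length. The AP-2 motif GCCNNNGGC was found once, in the *Bcl11b* promoter (chr12:108003365-108003664, minus strand), and in 16.6% of all promoters. None of the 4 windows held the MEIS motif TGACAG, present in 19.2% of all promoters, or the GLI motif GACCACCCA, present in 0.253%. Both strands were searched, and the matches are matches of letters only. The GC content was 71.0% for *Gli3*, 60.3% for *Tfap2e*, 51.0% for *Meis2* and 43.0% for *Bcl11b*, around a median of 52.7% over all promoters.

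The libraries carried the markers of their labelled tissues. *Trpc2*, the channel of vomeronasal neurons, averaged 43.0 FPKM in VNO, against 0.938 in MOE and 0.199 in OB, and the summed Vmn1r genes lay between 171 and 231 FPKM in VNO and at most at 1.73 elsewhere. *Omp*, listed with *Trpc2*, was highest in MOE instead, with means of 983 FPKM there, 101 in VNO and 35.1 in OB. *Cnga2*, the channel of olfactory sensory neurons, averaged 214 FPKM in MOE, but 2.18 in VNO and 0.602 in OB. Summed markers of sustentacular cells were at 1288 to 2377 FPKM in MOE, at 368 to 485 in VNO and at most at 7.48 in OB, and those of bulb projection neurons at 109 to 139 in OB and at most at 8.56 elsewhere. In VNO the sustentacular sum was mostly *Cbr2*, at 388 FPKM (814 in MOE). There *Sec14l3* averaged 40.0 FPKM (598 in MOE), *Cyp2g1* 7.28 (539) and *Ermn* 0.502 (20.7). Glial markers summed to 244 to 324 FPKM in OB and at most 42.7 elsewhere, ciliated cell markers to 26.5 to 60.3 in the nasal tissues and at most 2.32 in OB, and skeletal muscle markers to at most 4.07 anywhere. The number of fragments behind a library, estimated from the deposited confidence limits, was between 3016520 and 6779890. These totals are below the aligned pairs published for every library, so they are a rough scale and not the sequencing depth.

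**Figure D1:**
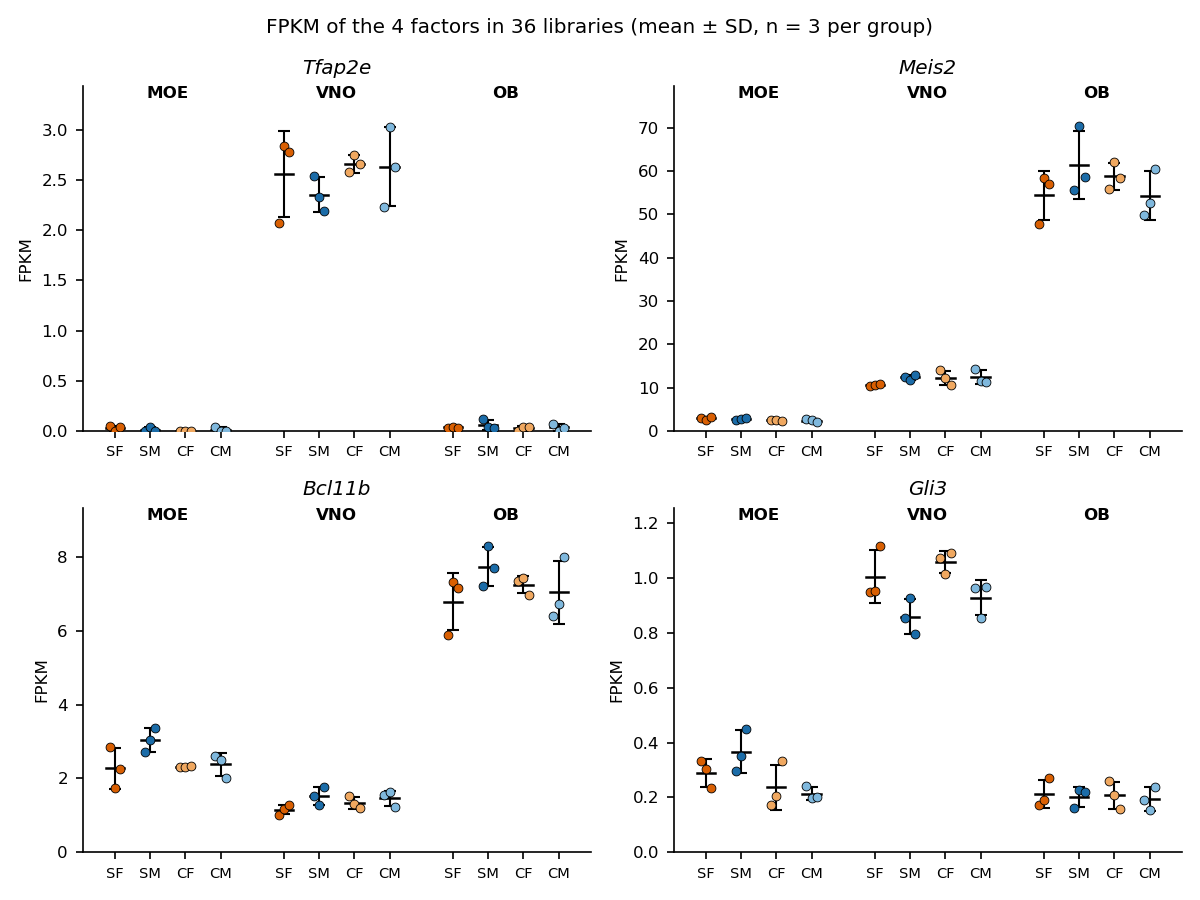
FPKM of *Tfap2e*, *Meis2*, *Bcl11b* and *Gli3* in all 36 libraries on linear axes, grouped by tissue and by SF, SM, CF and CM. Each point is 1 library, the long bars are means and the whiskers are SDs (n = 3). *Tfap2e* was near 0 outside VNO, *Meis2* and *Bcl11b* were highest in OB, and *Gli3* was highest in VNO.

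Each of the 4 factors had its own distribution over the tissues. *Tfap2e* was close to restricted to VNO, *Gli3* was 3.48 times higher in VNO than in MOE and 4.70 times higher than in OB, *Meis2* rose from MOE to VNO to OB, and *Bcl11b* was lowest in VNO. *Tfap2e*, *Meis2* and *Gli3* were higher in every VNO library than in every MOE library. Without a filter on low values, 15.6% of the 22091 genes above 0 in any library showed that pattern and 13% its opposite. Compared with OB, *Tfap2e* and *Gli3* were higher in VNO without overlap, as were 22.9% of these genes, and *Meis2* and *Bcl11b* were lower without overlap, as were 24.7%. In whole tissue, fewer cells of a type and less RNA per cell cannot be told apart.

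*Tfap2e*, the basal factor, ranged from 2.07 to 3.03 FPKM over the 12 VNO libraries, with a median of 2.61. In MOE it ranged from 0 to 0.0451 FPKM and was listed at 0 in 8 of 12 libraries. In OB it ranged from 0 to 0.121 FPKM and was listed at 0 in 2 of 12 libraries. All 24 MOE and OB libraries were thus below every VNO library, and all 24 were at or under the level that 3 fragments would give, which was between 0.0970 and 0.193 FPKM there. Pooled over the 12 libraries of a tissue, the estimates amounted to 4 fragments in MOE, 12 in OB and 881 in VNO. The pooled level in VNO was 211 times that in MOE (95% exact interval 82.1 to 776) and 71.9 times that in OB (41.0 to 140), intervals that reflect counting error alone, for reads that carried no molecular identifiers. The pooled levels and the level of 3 fragments were scaled by the estimated library totals, which are below the published aligned pairs. As plain ratios of mean FPKM, VNO was 185 times MOE and 65.0 times OB. By limma on log2(FPKM + 0.5), the difference was 2.57 ± 0.05 (SE) between VNO and MOE (adjusted p = 1.87e-27) and 2.50 ± 0.05 between VNO and OB (adjusted p = 6.98e-28). *Tfap2e* reached the expression filter of a mean of 0.5 FPKM over the 36 libraries only through VNO, so that these calls add nothing to its levels. Whether the trace in OB exceeded that in MOE was not detectable at this depth.

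*Meis2*, the apical factor, had a mean of 11.9 ± 1.3 FPKM (SD, n = 12) in VNO, with a range of 10.4 to 14.3. In MOE the mean was 2.63 ± 0.333 FPKM (SD, n = 12), with a range of 1.95 to 3.17. In OB it was 57.2 ± 5.88 FPKM (SD, n = 12), with a range of 47.8 to 70.3. No library of one tissue reached into the range of another, so the order OB, VNO, MOE held for every pair of libraries. The mean in OB was 4.81 times that in VNO and 21.7 times that in MOE. On the log2(FPKM + 0.5) scale VNO was 1.98 ± 0.06 (SE) above MOE (adjusted p = 5.59e-23) and fell by 2.22 relative to OB (adjusted p = 8.02e-25). Of the 14627 genes tested, 82.6% passed the threshold between VNO and MOE, 85.8% between VNO and OB and 85.1% between MOE and OB, so passing it was usual between these tissues, and 51.2% of genes did not overlap between MOE and OB. The markers of bulb interneurons (*Gad1*, *Gad2*, *Sp8*, *Th*, *Calb2*, *Slc32a1*) summed to between 370 and 474 FPKM in OB, 157 and 208 in VNO and 30.0 and 54.3 in MOE, the same order as *Meis2*. In VNO that sum was nearly all *Calb2*, at 177 FPKM, whereas *Gad2* averaged 0.0609 and *Slc32a1* 0.0114 FPKM there. The part of these cells in the *Meis2* levels was not tested.

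*Bcl11b* had a mean of 1.37 ± 0.218 FPKM (SD, n = 12) in VNO, with a range of 1.02 to 1.77. In MOE it was 2.50 ± 0.448 FPKM (SD, n = 12), with a range of 1.73 to 3.36, and in OB 7.20 ± 0.659 FPKM (SD, n = 12), with a range of 5.89 to 8.28. The OB libraries lay above all others, while the highest VNO library (1.77) slightly exceeded the lowest MOE library (1.73). Relative to MOE, *Bcl11b* in VNO fell by 0.67 on the log2(FPKM + 0.5) scale (SE 0.06, adjusted p = 4.87e-11), and relative to OB it fell by 2.04 (adjusted p = 2.99e-23). The median of all genes was -0.15 between VNO and MOE on the same scale and -0.01 after quantile scaling, under which *Bcl11b* was at -0.80 and *Meis2* at 2.24. Markers of T cells, which also use *Bcl11b*, were *Cd3e*, *Cd3d*, *Cd3g*, *Cd2* and *Lck*. They summed to 1.03 to 2.22 FPKM in VNO, 0.436 to 1.47 in MOE and 0.0423 to 0.597 in OB. None of the 5 passed the filter between tissues, and the part of T cells in the *Bcl11b* levels was not tested.

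*Gli3* was the least abundant of the 4 in VNO, at 0.963 ± 0.0986 FPKM (SD, n = 12), with a range of 0.797 to 1.11. In MOE it was 0.276 ± 0.0818 FPKM (SD, n = 12), with a range of 0.174 to 0.450, and in OB 0.205 ± 0.0394 FPKM (SD, n = 12), with a range of 0.155 to 0.271. Every VNO library lay above every library of the other tissues, and the ranges of MOE and OB overlapped. Each VNO value rested on an estimated 104 to 180 fragments, each MOE value on 21 to 66.1 and each OB value on 16 to 41.3. The mean of *Gli3* over all libraries, 0.481 FPKM, missed the filter, so its tissues were compared by a two-sided permutation test over libraries that was chosen after this was seen. VNO was 0.92 above MOE and 1.05 above OB on the log2(FPKM + 0.5) scale, each with an adjusted p = 3e-05 (unadjusted p = 2e-05, the smallest that 100000 permutations can give). MOE and OB differed by 0.13 (permutation p = 0.011), and this small difference turned to -0.22 after quantile scaling in limma without a filter. In limma without a filter, 70.5% of 22091 genes passed the threshold between VNO and MOE and 72% between VNO and OB, and *Gli3* was among them (adjusted p = 9.3e-18 and 1.3e-19).

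Within VNO the factors stood in the order *Meis2*, *Tfap2e*, *Bcl11b*, *Gli3*. *Meis2* and *Tfap2e* did not overlap with their neighbours in this order, whereas *Bcl11b* and *Gli3* did. The coefficient of variation over the 12 VNO libraries was 10.2% for *Gli3*, 11% for *Meis2*, 11.4% for *Tfap2e* and 15.8% for *Bcl11b*. The apical to basal pair *Meis2* and *Tfap2e* had a ratio of 4.73 ± 0.861 (SD, n = 12), with a range of 3.72 to 6.38. For the G protein subunits of the same fates, *Gnai2* and *Gnao1*, the ratio was 9.64 ± 1.13 (SD, n = 12). Neither subunit was confined to VNO, with means of 14.2 and 4.12 FPKM in MOE and 26.8 and 11.3 in OB. The summed receptor genes stood in the other order in VNO, with the apical Vmn1r family at 171 to 231 FPKM and the basal Vmn2r family at 245 to 300.

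The estimated shares of the *Meis2* transcripts differed between the tissues. The transcripts were singled out after their values were seen, and the division of short reads among 15 transcripts is an estimate in which a value of 0 can be a failed one. The transcript NM_001346047, whose locus reaches farthest upstream on the minus strand, took 35.9% ± 9.01 of the *Meis2* FPKM of MOE (SD, n = 12, range 18.4 to 52.6), 18.2% ± 3.88 in VNO (range 14 to 27) and 5.87% ± 6.17 in OB (range 0 to 12.8). It was above 0 in all 12 MOE and all 12 VNO libraries and in 6 of 12 OB libraries. Its share fell by 17.8 percentage points from MOE to VNO (two-sided permutation test over libraries, p = 4e-05). In absolute terms it averaged 0.941 FPKM in MOE and 2.15 FPKM in VNO. The 7 transcripts that share the next start made up 80.5% of *Meis2* in VNO, 49.4% in MOE and 66.2% in OB. The 7 transcripts with the innermost start made up 28% in OB and 14.7% in MOE, and in VNO they were above 0 in 1 of 12 libraries. For *Bcl11b*, the transcript NM_021399 was above 0 in 11 of 12 OB libraries, where it took 54.4% ± 23.3 (SD, n = 12) of the gene, in 5 of 12 MOE libraries and in 3 of 12 VNO libraries.

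**Figure D2:**
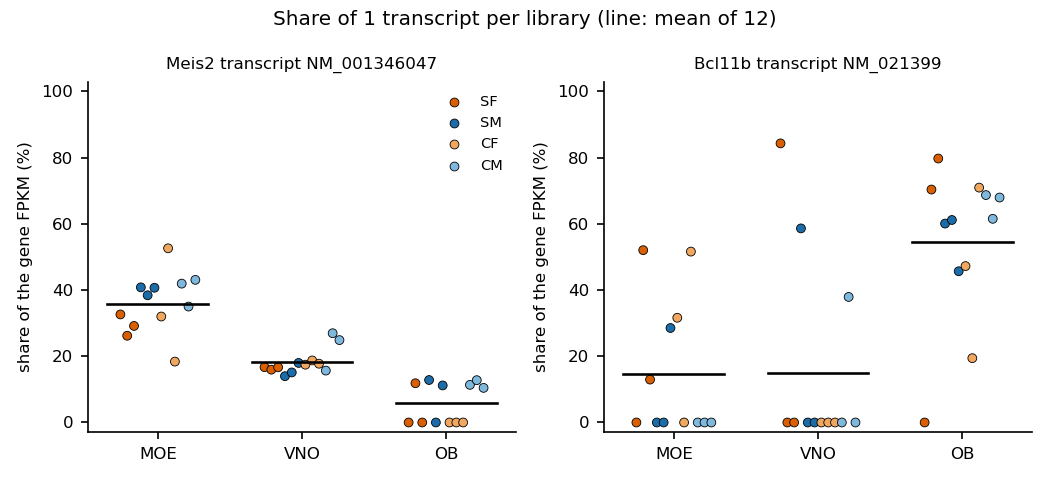
Share of 1 transcript in the FPKM of its gene, in percent, for each library of MOE, VNO and OB, in the colours used for SF, SM, CF and CM, with lines at the mean of 12 libraries. The mean share of the *Meis2* transcript is 35.9% in MOE, 18.2% in VNO and 5.87% in OB, where 6 of 12 libraries are at 0. The *Bcl11b* transcript is mostly at 0 outside OB.

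The study asks whether the sexes differ under each housing and whether the housing changes that difference, and the factors were read for this in VNO first. None of the 4 passed the threshold in any comparison within VNO. Of the 13849 genes tested there by limma, the SF and SM comparison called 0.0722% and the CF and CM comparison 0.0433%. For the interaction of sex and housing and for housing the background was 0%, with 728 and 1048 genes at an unadjusted p under 0.05. At that unadjusted level 1 of the 4 factors, *Bcl11b*, stood out between SF and SM, where 8.8% of all genes did, and none stood out in the other 3 comparisons.

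**Figure D3:**
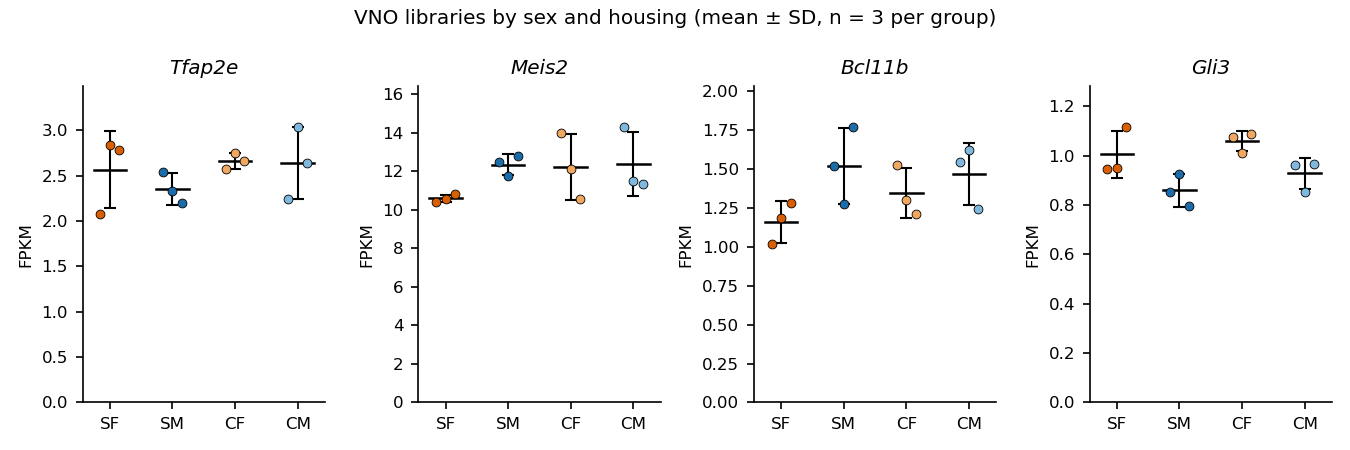
FPKM of the 4 factors in the 12 VNO libraries by group, on linear axes that start at 0. Points are libraries, long bars means and whiskers SDs (n = 3). SF lies below SM for *Meis2*, and females lie above males of the same housing for *Gli3*, while the sexes of the same housing overlap in the other panels and for *Meis2* in CF and CM.

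For *Meis2*, the 3 SF libraries had 10.4, 10.6 and 10.8 FPKM and the 3 SM libraries 12.5, 11.8 and 12.8. The CF libraries had 14, 12.1 and 10.6 FPKM and the CM libraries 14.3, 11.5 and 11.3. SF was thus below SM in all libraries, whereas CF and CM overlapped. Among all genes, 13% lay lower in SF than in SM without overlap and 1.58% higher. SF minus SM was -0.21 on the log2 scale (95% interval -0.44 to 0.02, adjusted p = 0.597), and CF minus CM was -0.02 (-0.25 to 0.21, adjusted p = 1).

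For *Bcl11b*, the SF libraries had 1.02, 1.18 and 1.28 FPKM and the SM libraries 1.52, 1.28 and 1.77. In CF the values were 1.52, 1.3 and 1.21 FPKM and in CM 1.54, 1.62 and 1.24. The highest SF and lowest SM library were level with each other, and CF and CM overlapped widely. SF minus SM was -0.28 on the log2 scale (95% interval -0.54 to -0.02, unadjusted p = 0.0397, adjusted p = 0.559 by limma). The direction was the same in the other tissues without passing the threshold there, with -0.37 in MOE (interval -0.73 to -0.01, adjusted p = 1) and -0.18 in OB (-0.41 to 0.05, adjusted p = 1). Under shared housing CF and CM differed by -0.09 in VNO, -0.02 in MOE and 0.04 in OB.

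For *Gli3*, the SF libraries had 0.948, 0.951 and 1.11 FPKM and the SM libraries 0.852, 0.927 and 0.797. In CF the values were 1.07, 1.01 and 1.09 FPKM and in CM 0.964, 0.854 and 0.965. Every female library was above every male library of the same housing, where 1.58% of all genes lay above without overlap in the sex-separated pair and 5.44% in the sex-combined pair. SF exceeded SM by 0.15 on the log2 scale (95% interval -0.06 to 0.35, adjusted p = 0.644) and CF exceeded CM by 0.13 (-0.08 to 0.33, adjusted p = 1). Averaged over both housings, a contrast added after these values were seen, females were 0.14 above males (-0.01 to 0.28, unadjusted p = 0.0637, adjusted p = 0.773), where 0.123% of genes passed the threshold.

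For *Tfap2e*, the SF libraries had 2.07, 2.84 and 2.79 FPKM, the SM libraries 2.54, 2.33 and 2.19, the CF libraries 2.58, 2.75 and 2.66 and the CM libraries 2.24, 3.03 and 2.64. The groups overlapped in both housings. On the log2 scale SF minus SM was 0.09 (95% interval -0.16 to 0.35, adjusted p = 0.802) and CF minus CM was 0.02 (-0.23 to 0.27, adjusted p = 1). The intervals of all 4 factors leave room for changes of this size, so a missed threshold does not show equal levels.

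The change of the sex difference with housing was -0.19 for *Meis2* (95% interval -0.52 to 0.14), -0.19 for *Bcl11b* (-0.56 to 0.19), 0.07 for *Tfap2e* (-0.28 to 0.43) and 0.02 for *Gli3* (-0.27 to 0.31), with adjusted p-values of 0.895 or more. Sex-combined minus sex-separated housing gave 0.09 for *Meis2* (95% interval -0.07 to 0.26), 0.09 for *Tfap2e* (-0.09 to 0.27), 0.06 for *Bcl11b* (-0.13 to 0.25) and 0.06 for *Gli3* (-0.08 to 0.21), with adjusted p-values of 0.770 or more. All 4 intervals included 0, and the median over all genes was 0.05. Published RNA integrity numbers of the VNO pools were mostly lower under sex-combined housing, and mice bred in those cages. The part of either in these differences was not tested.

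**Figure D4:**
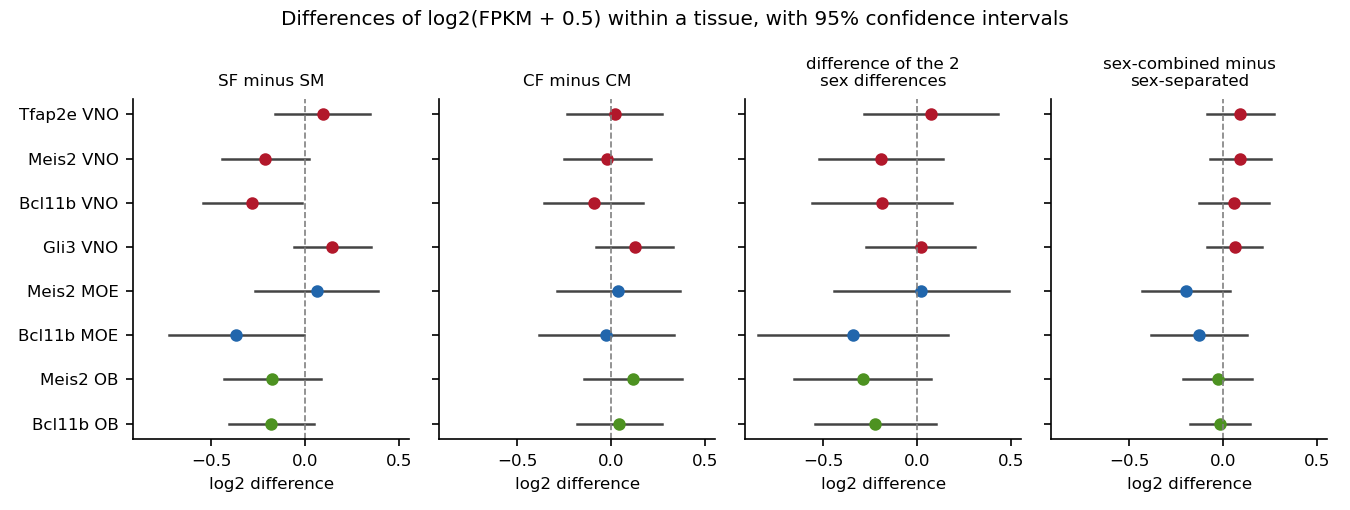
Differences of log2(FPKM + 0.5) within a tissue by limma, for SF minus SM, CF minus CM, the difference of these 2 and sex-combined minus sex-separated housing. Points are estimates and lines 95% confidence intervals, and only *Bcl11b* between SF and SM, in VNO and MOE, has intervals that leave out 0 before adjustment.

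In VNO some sums over marker genes did not overlap between SF and SM either, although none of these genes that were tested passed the threshold. Among all single genes, 13% lay lower in SF than in SM without overlap and 1.58% higher. The markers of olfactory sensory neurons (*Cnga2*, *Adcy3*, *Gnal*, *Gng13*) summed to 23.7 to 27.7 FPKM in SF and 36.2 to 39.4 in SM, and those of cartilage and bone (*Col2a1*, *Acan*, *Sox9*, *Bglap*, *Sp7*) to 51.8 to 88.3 and 33.3 to 49.4. The sum of the progenitor and Notch genes was 42.2 to 43.7 in SF and 46.3 to 58.4 in SM, and that of the other AP-2 genes 1.38 to 1.43 and 1.66 to 2.79. The sums of *Trpc2* and *Omp* overlapped, at 117 to 142 in SF and 119 to 159 in SM. *Omp* was the larger part of them and is not particular to VNO, with a mean of 101 FPKM there and 983 in MOE. *Trpc2* alone overlapped too, at 36.2 to 44.5 in SF and 33.3 to 44.3 in SM. The part of the cells marked by these lists in the levels of *Meis2*, *Bcl11b* and *Gli3* was not tested.

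In MOE and OB only *Meis2* and *Bcl11b* passed the filter within the tissue, and neither passed the threshold in any comparison, where few genes did. Of the 13757 genes tested in MOE, 0.102% passed for SF against SM, 0.0436% for CF against CM, 0.0363% for the interaction and 0.102% for housing. Of the 12795 genes tested in OB, the shares were 0.0391%, 0.0469%, 0.00782% and 0.00782%. *Bcl11b* in MOE was at 2.85, 1.73 and 2.25 FPKM in SF and at 2.71, 3.05 and 3.36 in SM, which overlapped, and had an unadjusted p of 0.0458 by limma, where 4.16% of genes were under 0.05. *Meis2* in MOE differed by 0.06 between SF and SM (95% interval -0.27 to 0.39), and in OB by -0.17 (-0.43 to 0.09). *Gli3* in MOE ranged from 0.234 to 0.332 FPKM in SF, 0.296 to 0.450 in SM, 0.174 to 0.331 in CF and 0.198 to 0.241 in CM. It was under the filter there, and in limma without a filter no comparison of it within MOE passed the threshold (adjusted p of 0.827 or more, the lowest for housing, with a difference of -0.19 and an unadjusted p of 0.0165).

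Whether the factors varied together from pool to pool was examined over the 12 VNO libraries, in 14 relations that paired the factors with each other and with *Gnai2* and *Gnao1*. *Meis2* and *Bcl11b* had the closest relation, past the threshold by rank and just short of it by Pearson's r. They gave Pearson's r of 0.74 (two-sided permutation p = 0.00614, adjusted p = 0.0527) and Spearman's rho of 0.83 (permutation p = 0.00158, adjusted p = 0.0221). Without CF replicate 1 and CM replicate 1, the libraries farthest from the *Meis2* median, r was 0.80. Within females r was 0.87, within males 0.47, within sex-separated libraries 0.92 and within sex-combined libraries 0.63, each over 6 libraries. All of these r values, and that over 12 libraries, also hold differences between groups, and the SF means were the lowest for both genes. *Meis2* with *Gnao1* gave r of 0.68 (permutation p = 0.0113, adjusted p = 0.0527) and rho of 0.57 (permutation p = 0.0590, adjusted p = 0.275), but r was 0.30 without the same 2 libraries, so this relation rests on them. *Bcl11b* with *Gnai2* gave r of 0.73 (permutation p = 0.00817, adjusted p = 0.0527) and rho of 0.67 (permutation p = 0.0204, adjusted p = 0.143), and r of 0.67 without CM replicate 2 and SM replicate 3. The apical and basal factors *Meis2* and *Tfap2e* had r of -0.28 (permutation p = 0.376, adjusted p = 0.592) and rho of -0.30 (permutation p = 0.344, adjusted p = 0.601), with r of -0.61 without SF replicate 1 and SM replicate 3. In the other 10 relations r lay between -0.49 and 0.49 with adjusted permutation p-values of 0.287 or more.

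**Figure D5:**
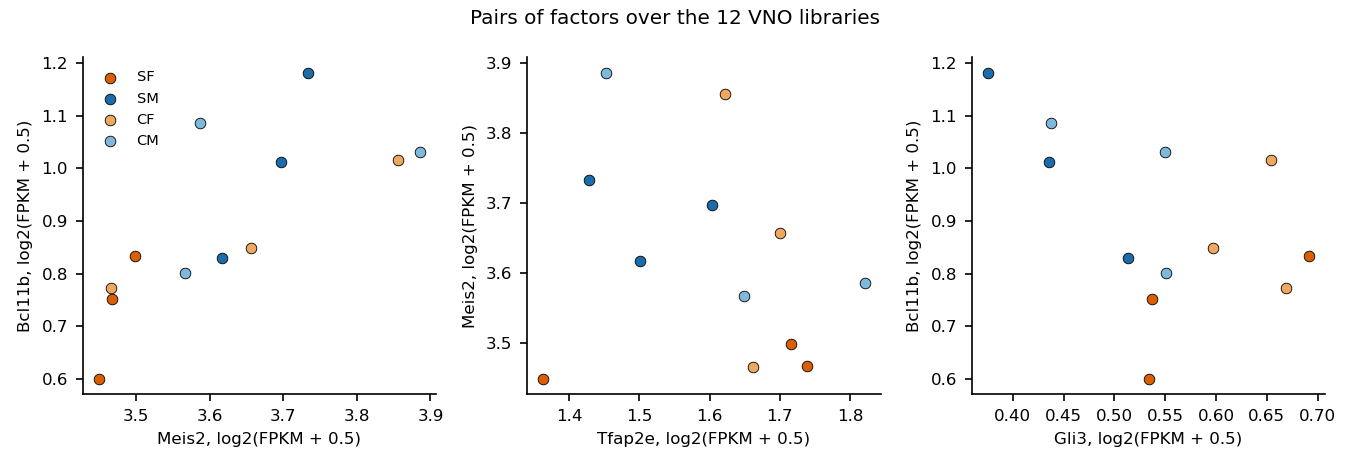
log2(FPKM + 0.5) of 3 pairs of factors, with 1 point per VNO library coloured by group. *Meis2* and *Bcl11b* tend to rise together (r = 0.74, rho = 0.83), while *Tfap2e* with *Meis2* (r = -0.28) and *Gli3* with *Bcl11b* (r = -0.49) show looser clouds.

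Genes around the factors were read as lists. Of 3 apical neuron genes, *Gnai2* (46.1 FPKM in VNO, 14.2 in MOE) and the guidance receptor *Nrp2* (19.5 and 10.2) were higher in VNO than in MOE and *Pde4a* (1.59 and 6.05) was lower, with a list median of 0.91 on the log2 scale. Of 4 basal neuron genes, *Gnao1* (4.85 and 4.12), *Gng8* (8.02 and 2.09) and *Calr4* (39.7 and 0.135) were higher and *Robo2* (3.62 and 5.06) was lower, with a median of 0.98. *Calr4*, at 0.0824 FPKM in OB, reached the filter of 0.5 FPKM only through VNO. Its calls against MOE and OB thus add nothing to its levels, and its place in the list median was favoured by the filter. Of all genes tested, 34% were called higher in VNO than in MOE and 48.6% lower. Compared with OB, *Gnai2*, *Nrp2*, *Gng8* and *Calr4* were higher in VNO and *Pde4a*, *Gnao1* and *Robo2* were lower. There 37.8% of all genes were called higher and 48% lower. These calls were the same after quantile scaling. Within VNO none of the 3 apical and none of the 4 basal genes passed the threshold for either sex comparison.

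The Hedgehog list, around *Gli3*, held 14 genes, of which 8 passed the filter. Compared with MOE, 6 of the 8 were higher in VNO and 2 lower, with a median of 0.54 against -0.15 for all genes, of which 34% were called higher and 48.6% lower. They included the antagonist *Hhip* (2.09 FPKM in VNO, 0.750 in MOE), the signal transducer *Smo* (5.35 and 3.09) and the co-receptor *Boc* (5.35 and 3.43). The receptor and target gene *Ptch1* averaged 2.60 and 1.99 FPKM. The 2 that were lower were *Cdon* (2.93 and 3.33) and *Gas1* (7.04 and 8.27), and the call of *Gas1* was lost after quantile scaling (adjusted p = 0.565). Compared with OB, 6 were higher in VNO (37.8% of all genes were called higher and 48% lower), *Ptch1* was lower and *Kif7* was not called (after quantile scaling *Kif7* was lower and *Sufu* was not called). The ligand *Shh* was listed at 0 in 11 of 12 VNO and 9 of 12 MOE libraries and averaged 0.607 FPKM in OB, whereas *Dhh* averaged 0.328 FPKM in VNO, with 0.384 in MOE and 0.219 in OB. The other GLI genes were also higher in VNO by their means, *Gli1* with 0.421 FPKM (0.211 in MOE, 0.124 in OB) and *Gli2* with 0.287 FPKM (0.0851 and 0.0570), but both were under the filter and were not tested.

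The other AP-2 genes differed in the tissue of highest mean, VNO for *Tfap2a* and *Tfap2c*, MOE for *Tfap2b* and OB for *Tfap2d*. *Tfap2a* averaged 0.425 FPKM in VNO, with 0.128 in MOE and 0.00207 in OB. *Tfap2b* averaged 0.717 FPKM in MOE, 0.107 in OB and 0.0164 in VNO, and *Tfap2d* averaged 0.587 FPKM in OB and was listed at 0 in 10 of 12 libraries of each other tissue. *Tfap2c*, with 1.29 FPKM in VNO, 0.648 in MOE and 0.847 in OB, was the single one past the filter and was higher in VNO than in MOE (adjusted p = 1.09e-08 by limma) and than in OB (adjusted p = 2.30e-05), the latter call being lost after quantile scaling (adjusted p = 0.649). *Tfap2e* was thus the AP-2 gene with the highest level in VNO.

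*Meis1*, a relative of *Meis2* among the TALE homeobox genes, averaged 9.25 FPKM in VNO, 7.73 in MOE and 9.34 in OB, and the VNO and OB levels, which did not pass the threshold as deposited, differed after quantile scaling (0.31, VNO higher). *Bcl11a*, the relative of *Bcl11b*, averaged 1.29 FPKM in VNO, 2.25 in MOE and 6.00 in OB, also the order of its relative. Of the 8 progenitor and Notch genes, 5 were tested between VNO and MOE, and *Sox2*, *Notch1* and *Dll1* were higher, *Neurod1* lower and *Hes1* not called (higher after quantile scaling). Of all genes tested, 34% were called higher in VNO than in MOE and 48.6% lower.

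Over the 36 libraries, the genes whose log2(FPKM + 0.5) followed each factor most closely were described without a test, since tissue differences dominate such a measure. For *Tfap2e* they were *Pde5a* (r = 0.994), *Pln* (0.993) and *Sod3* (0.992), with VNO means of 110, 26.1 and 7.19 FPKM and MOE means of 3.53, 0.415 and 0.397 FPKM. For *Gli3* they were *Ccnd2*, *Ltbp1* and *Smtn*, with r between 0.976 and 0.977. *Meis2* was followed by *Rian* (0.998), *Zeb2* (0.997) and *Fam102b* (0.996), and *Bcl11b* by *Scn8a*, *Snap91* and *Got1*, each with r of 0.990. Over the 12 VNO libraries alone other genes led: *Ctu1* (0.938), *Chd3* (0.916) and *Homer3* (0.912) for *Tfap2e*, *Rtn3* (0.947), *Gdap1* (0.939) and *Ncoa1* (0.925) for *Meis2*, *Nudcd3* (0.944), *Jup* (0.889) and *Mta1* (0.882) for *Bcl11b*, and *Gpr176* (0.844), *Sik2* (0.840) and *Grin3a* (0.833) for *Gli3*. These were the highest of 13600 genes, over libraries that share tissue and processing.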

How the data were processed

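Total RNA depleted of ribosomal RNA was sequenced in pairs of 50 bases on 2 lanes. Per the labels, the submitters' notes name TopHat2 2.1.0, Cufflinks 2.2.1.0 and mm9. The authors merged the lanes, aligned the pairs and computed the deposited FPKM per transcript. RefSeq accessions were matched to symbols (99.7% of entries) and FPKM summed by gene, and genes with a failed entry (7) were left out. Fragments behind a value were estimated by dividing FPKM by its standard error, taken from the deposited 95% limits, and squaring.

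Tissues were compared in 1 limma 3.58.1 fit (R 4.3.3, eBayes with trend) over 36 libraries and 12 groups, and sex and housing in 1 fit per tissue, on log2(FPKM + 0.5) for genes with a mean of at least 0.5 FPKM. This scale understates changes of low genes. Adjustment was by Benjamini-Hochberg over all genes tested, with a threshold of 0.05. Permutation tests used 100000 resamples (Python 3.11.15, scipy 1.17.1, numpy 2.4.6, pandas 2.3.3), and figures matplotlib 3.10.9. The fits were tested on simulated data.

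The 4 factors and the 18 gene lists (91 genes) were chosen with earlier results of these data known. Results of 2 of the lists, or parts of them, are not reported here. Beside the factors, genes are named from the lists or as the 3 with the highest r to a factor, over 36 or 12 VNO libraries, among genes never listed at 0. Alternatives were pseudocounts of 0.1 and 1, no filter, quantile scaling, a block for the replicate number, fits restricted to the 6 libraries of a comparison, and omission of single libraries. Added after seeing the data were the *Gli3* permutation test, the *Meis2* transcript share and the sex contrast over both housings. A genome of the mm9 build was not used here, and the promoters come from another build.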

Additional observations from a re-analysis of the deposited data

How the results depend on the processing

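Every difference of *Tfap2e*, *Meis2* and *Bcl11b* between tissues named above kept its direction and call under pseudocounts of 0.1 and 1, no filter, quantile scaling, the replicate block and each library left out, and no difference within a tissue passed the threshold under any of them. Differences of *Gli3* between VNO and the other tissues kept theirs under both pseudocounts and without a filter. Small differences turned sign. Under quantile scaling *Meis2* between CF and CM in MOE was -0.070, and between all females and males in OB 0.048. With each library left out in turn, CF minus CM ranged from -0.12 to 0.034 for *Bcl11b* and -0.074 to 0.12 for *Meis2* in MOE, -0.12 to 0.083 for *Meis2* and -0.073 to 0.11 for *Tfap2e* in VNO, and -0.016 to 0.13 for *Bcl11b* in OB. The interaction ranged from -0.061 to 0.14 for *Meis2* in MOE, and in VNO from -0.033 to 0.057 for *Gli3* and -0.015 to 0.20 for *Tfap2e*. Housing in OB ranged from -0.064 to 0.013 for *Bcl11b* and -0.074 to 0.021 for *Meis2*, and all females minus males from -0.0053 to 0.094 for *Meis2* in MOE and -0.063 to 0.022 in OB. Counts of all genes called moved more. Without a filter they were 8 (SF and SM, 14 in the main fit), 2 (interaction, 5) and 6 (housing, 14) in MOE, and 1 and 1 (interaction and housing, 0) in VNO. With a pseudocount of 0.1 the MOE interaction had 3, and under quantile scaling it had 2 and MOE housing 24. With only the 6 libraries compared, CF and CM gave 10 in VNO and 10 in OB (6 each in the main fit). With each library left out, counts ranged from 1 to 11 (interaction) and 11 to 23 (housing) in MOE, 5 to 11 (SF and SM), 0 to 3 (interaction), 0 to 6 (housing) and 10 to 18 (all females and males) in VNO, and 1 to 4 (interaction) and 1 to 3 (housing) in OB. Quantile scaling changed the split of higher against lower calls from 5 and 9 to 9 and 7 between SF and SM in MOE, and from 1 and 5 to 3 and 5 between CF and CM in OB. Among correlations in VNO, *Tfap2e* with *Bcl11b* (0.03) was -0.11 without the 2 farthest libraries and -0.29 after quantile scaling, *Tfap2e* with *Gnai2* was -0.35 after quantile scaling, and over deviations from group means *Tfap2e* with *Gli3* was -0.0051 and *Meis2* with *Gli3* 0.051. With each library left out, r ranged from -0.39 to 0.32 for *Tfap2e* with *Bcl11b*, 0.69 to 0.83 for *Meis2* with *Bcl11b*, 0.48 to 0.82 for *Meis2* with *Gnao1* and 0.67 to 0.84 for *Bcl11b* with *Gnai2*. The last 3 each passed the threshold in 1 such setting. The causes of these changes were not tested.

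Whether a number stands for the same mice in each tissue is not given in the sources used here, and deviations of same-numbered libraries had a median correlation of 0.08 in VNO, 0.02 in MOE and 0.00939 across tissues, so the numbers were not taken to pair the samples. The replicate block changed no call of a factor and gave 7 genes between SF and SM in VNO (10 without it) and 18 in MOE (14 without it). Depth limits *Tfap2e* outside VNO and *Gli3* in MOE and OB, where few fragments stand behind a value. With 3 pools per group, the intervals of sex differences were wide against the differences themselves.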
